A study of Mus musculus with 64 samples.

Results

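The genes described here are 10 genes of natural killer (NK) cells and of cell killing: the receptors Klre1, Klrb1c, Klrd1 and Ncr1, the granule proteins Gzma, Gzmb, Prf1 and Nkg7, and the transcription factors Eomes and Tbx21. They were chosen by symbol and matched by Ensembl mouse identifier, and all 10 were found among the 26286 genes of the deposited count table. RNA was sequenced from whole bone marrow, whole spleen and 2 flow-sorted progenitor populations of each organ in mice carrying scat, a mutant allele of Rasa3, the gene of a protein that switches off the GTPases Ras and Rap1. The sorted populations were megakaryocyte-erythroid progenitors (MEP) and stem and myeloid progenitors (SMP), the latter gated as Lin-, Sca-, Kit+, CD34+ and CD16/32 low because Sca1 is poorly expressed in BALB mice. The libraries were made with an mRNA kit from total RNA.

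All mice were of the strain CbyJ.Cby-Rasa3(scat)/Llp. Homozygous scat/scat mice in crisis, the severe phase of their anemia, gave 18 libraries from 3 mice aged 23 to 28 days. Their +/+ wild-type (WT) littermate controls of the same ages, called young WT here, gave 18 libraries from 7 mice. Scat/scat mice in partial remission gave 17 libraries from 5 mice aged 32 to 58 days, and +/+ mice of those ages, called older WT, gave 10 libraries from 3 mice. Each organ and population held 3 libraries per group, except that spleen MEP had 2 in remission and that older WT had 2, or 1 in whole spleen and in spleen SMP. The labels name no agent. Remission libraries were older than crisis libraries, so remission and age cannot be told apart where those groups are compared; older WT mice spanned the same ages as remission mice. The same mice gave several of the populations, so results in different populations are not independent.

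NK cells are innate lymphocytes that kill infected, transformed or stressed cells without prior sensitisation. They arise in the bone marrow under the control of interleukin-15 and of the T-box factors T-bet and Eomes, and they circulate through the spleen. A balance of activating and inhibitory receptors decides whether a cytotoxic granule is released: perforin then opens the target membrane and granzymes enter and start cell death. Cytotoxic T cells use the same granule proteins. NKp46, CD94 and, in some strains, NK1.1 are receptors by which mouse NK cells are commonly recognised.

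The 9 members with an entry in the RefSeq promoter table (GRCm38.p6; Klrd1 had none) moved together in whole spleen, so the 250 bases before their annotated starts were searched on both strands for 3 motifs of factors known in cytotoxic lymphocytes: TGTGGT for RUNX, GGAAGT for ETS and GGTGTGA for T-box proteins. The RUNX letters were found before 7 of the 9 genes (77.8%), against 14.0% of all 32851 promoters of the table. The ETS letters were found before 3 of the 9 (33.3%), against 19.7%, and the T-box letters before 1 of the 9, Nkg7 (11.1%), against 3.33%. A gene was counted if any of its start entries matched, whereas the shares of the table are per entry. By entry, the RUNX letters were found in 8 of 11, the ETS letters in 3 of 11 and the T-box letters in 1 of 11. No matches overlapped, and a match is a description of letters, not evidence of binding. Klre1 and Ncr1 each had 2 start entries: the 2 of Ncr1 share both matches, and 1 of Klre1 has no match. The starts of 4 genes are shown: Ncr1, Gzma and Gzmb hold the RUNX letters, in capitals, and Tbx21 holds the ETS letters, in capitals, without a RUNX match. Positions are chr7:4337465-4337714 on the plus strand for Ncr1, and on the minus strand chr13:113100982-113101231 for Gzma, chr14:56262335-56262584 for Gzmb and chr11:97115332-97115581 for Tbx21. All are written 5′ to 3′ on the gene's strand and end at the base before the start.
Ncr1: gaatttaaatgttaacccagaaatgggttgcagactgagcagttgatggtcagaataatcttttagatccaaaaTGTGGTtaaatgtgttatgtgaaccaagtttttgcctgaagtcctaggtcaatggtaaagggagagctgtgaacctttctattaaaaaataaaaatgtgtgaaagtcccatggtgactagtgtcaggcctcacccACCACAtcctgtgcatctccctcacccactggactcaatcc
Gzma: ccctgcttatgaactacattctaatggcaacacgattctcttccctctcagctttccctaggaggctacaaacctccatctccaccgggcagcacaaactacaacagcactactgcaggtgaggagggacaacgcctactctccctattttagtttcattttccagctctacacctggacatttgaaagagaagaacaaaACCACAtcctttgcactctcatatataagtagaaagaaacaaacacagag
Gzmb: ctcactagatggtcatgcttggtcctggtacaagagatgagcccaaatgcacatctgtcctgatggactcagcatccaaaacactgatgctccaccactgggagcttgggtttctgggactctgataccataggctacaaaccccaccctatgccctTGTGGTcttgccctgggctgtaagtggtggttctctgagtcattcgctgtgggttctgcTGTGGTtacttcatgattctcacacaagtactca
Tbx21: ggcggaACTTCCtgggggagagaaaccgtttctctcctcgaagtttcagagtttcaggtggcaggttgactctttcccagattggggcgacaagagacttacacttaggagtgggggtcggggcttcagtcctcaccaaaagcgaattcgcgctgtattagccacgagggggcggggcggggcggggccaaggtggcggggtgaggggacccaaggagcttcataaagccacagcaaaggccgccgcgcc
The first base of each match lay at -176 and -41 from the start of Ncr1 (the second on the opposite strand), at -50 of Gzma (opposite strand), at -93 and -34 of Gzmb and at -244 of Tbx21 (opposite strand).

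Before the members are described, 2 features of the libraries bear on them. Deposited normalised counts summed to between 33.6 and 108 M per library (M, counts in units of 1e+06; median 50.6 M), with 16413 to 19940 genes above 0; these are totals after the authors' normalisation, so the sequenced depth is not known from them. Counts were rescaled within each population and are called rescaled counts below; n is 3 libraries per group unless stated, errors are SD for levels and SE for log2 fold changes, and a gene is called changed at a Benjamini-Hochberg adjusted p under 0.05 over all genes tested with limma. The second feature concerns mice 2726 and 27265. The whole-spleen library of mouse 27265 is labelled scat/scat in partial remission while the other libraries of that mouse are labelled +/+, so it was left unassigned. The other libraries of mouse 27265 were kept as older WT by their own labels. The whole-spleen remission library of mouse 2726, aged 58 days, stood apart from the other 2 in every member. Group comparisons that rest on it are given with and without it, and correlations across libraries only with it.

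In young WT mice Nkg7, which encodes a membrane protein of cytotoxic granules, had the highest level of the 10 genes in counts per M and per kilobase of transcript in each of the 6 populations. That level was 22.5 ± 1.72 in whole spleen, 31.6 ± 2.41 in whole marrow, 47.7 ± 6.99 in spleen SMP and 37.3 ± 5.62 in marrow SMP. In whole spleen Gzma, encoding granzyme A, followed at 20.7 ± 2.34 on the same scale, within the spread of Nkg7, and Ncr1, encoding the activating receptor NKp46, came next at 6.74 ± 0.833. Gzmb, Eomes, Prf1, Tbx21 and Klrd1 lay between 3.60 and 3.97 and did not differ beyond their spread. Klrb1c stood lower at 1.45 ± 0.320, and Klre1 was lowest at 0.339 ± 0.0913.

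The order was alike in whole marrow for the top and bottom of the list: Gzma at 10.5 ± 0.723 and Ncr1 at 3.94 ± 0.518 per M per kilobase followed Nkg7, and Klre1 was lowest at 0.0837 ± 0.00420. In spleen SMP the list came apart. Gzmb, encoding granzyme B, was second at 4.55 ± 0.323, whereas Ncr1 (0.114 ± 0.155), Eomes (0.0943 ± 0.101) and Tbx21 (0.0856 ± 0.0420) were near 0 and Klre1 was at 0 in all 3 libraries. Marrow SMP likewise had Ncr1 at 0.0386, Tbx21 at 0.0038 and Klre1 at 0.0051 beside the high Nkg7. The defining NK receptor Ncr1 and the factor Tbx21 were thus well above 0 in the whole organs, and in SMP the high Nkg7 level was not accompanied by them. The receptor gene Klrb1c was not among the members near 0 in SMP, as its counts given below for marrow SMP show.

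**Figure D1:**
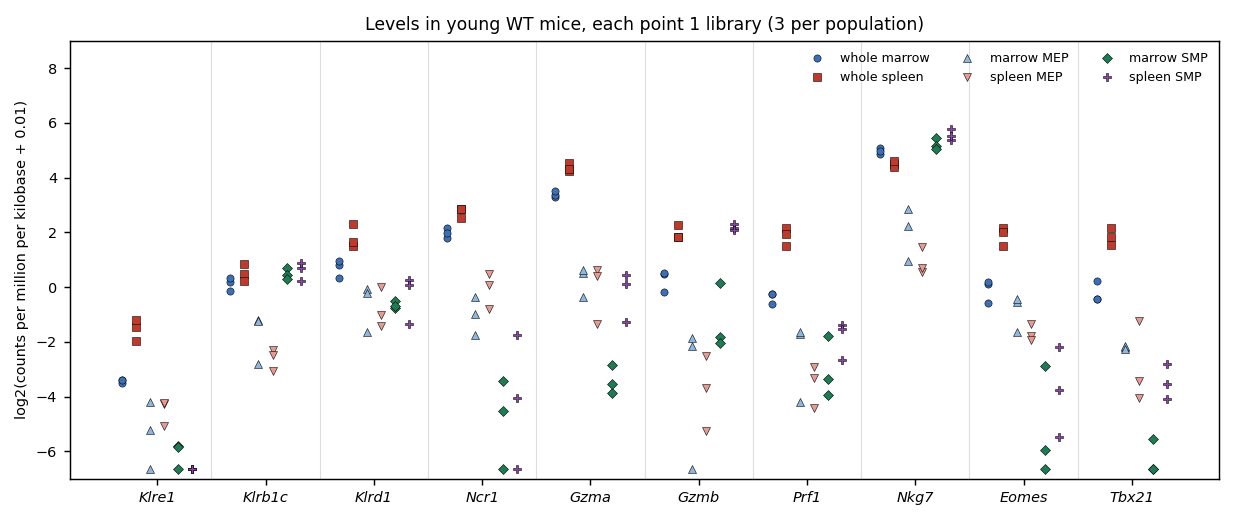
Levels of the 10 genes in young WT mice, as log2 of counts per M per kilobase plus 0.01, in the 6 populations; points are libraries. Nkg7 is at the top in every population, while Ncr1, Eomes, Tbx21 and Klre1 are the 4 lowest in both SMP populations.

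Within young WT mice, 8 of the 10 genes were higher in whole spleen than in whole marrow (background: 15.0% of 16376 genes were called higher). Prf1, encoding perforin, differed most, by a log2 fold change of 2.53 ± 0.247 (5.79-fold, adjusted p = 0.0000468), followed by Tbx21 at 2.37 ± 0.280 and Eomes at 2.27 ± 0.267. Klre1, Gzmb, Klrd1, Gzma and Ncr1 were higher by 2.18, 1.98, 1.38, 1.25 and 1.05 on the log2 scale. Klrb1c (0.67, adjusted p = 0.0585) and Nkg7 (-0.20, adjusted p = 0.292) did not pass. Without mouse as a block Klrb1c passed too (0.69, adjusted p = 0.0419), and with the deposited values left unscaled 4 of the 10 genes did (background 3.62%). In SMP, 2 of 7 tested members were higher in spleen (background 3.10%): Gzmb by 3.41 ± 0.521 (10.6-fold, adjusted p = 0.0164) and Gzma by 3.02 ± 0.637 (8.10-fold, adjusted p = 0.0350). No young WT mouse gave SMP of both organs, so organ and animal cannot be told apart in this comparison. Gzma averaged 4.03 rescaled counts in young WT marrow SMP and 48.3 in spleen SMP, so it passed the filter on a mean of 10 only through spleen, and its call is not read against that background. In MEP none of the 8 tested members passed with limma, 3 had an unadjusted p under 0.05, and none of 14251 genes passed. Both SMP calls rest on single libraries: leaving out 1 library at a time left between 0 and 2 of them, and Gzmb lost its call without mouse 2808 in spleen or mouse m25dwt in marrow, with adjusted p = 0.0707 and 0.0788, while Gzma lost it in 5 of 6 such fits, with p up to 0.140.

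The main comparison asked which RNAs differ in scat mice in crisis. In whole spleen every one of the 10 genes fell in crisis, and for each gene all 3 crisis libraries lay below all 3 young WT libraries. Outside Klre1, which was listed at 0 in crisis, the falls ranged from 6.06-fold to 20.1-fold, with a median log2 fold change of -3.30 over those 9 genes against -0.05 over all genes. These counts are read against a broad change in this organ: 24.2% of 16015 genes were called lower and 47.0% changed in either direction, and in 30.1% the crisis libraries all lay below the young WT libraries. Klre1 passed the filter through the other groups and is not read against these or later whole-spleen shares. The summed level of the 10 genes was 6329 to 7105 rescaled counts in young WT and 526 to 829 in crisis. In bulk RNA, fewer cells of a type and less RNA per cell cannot be told apart.

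**Figure D2:**
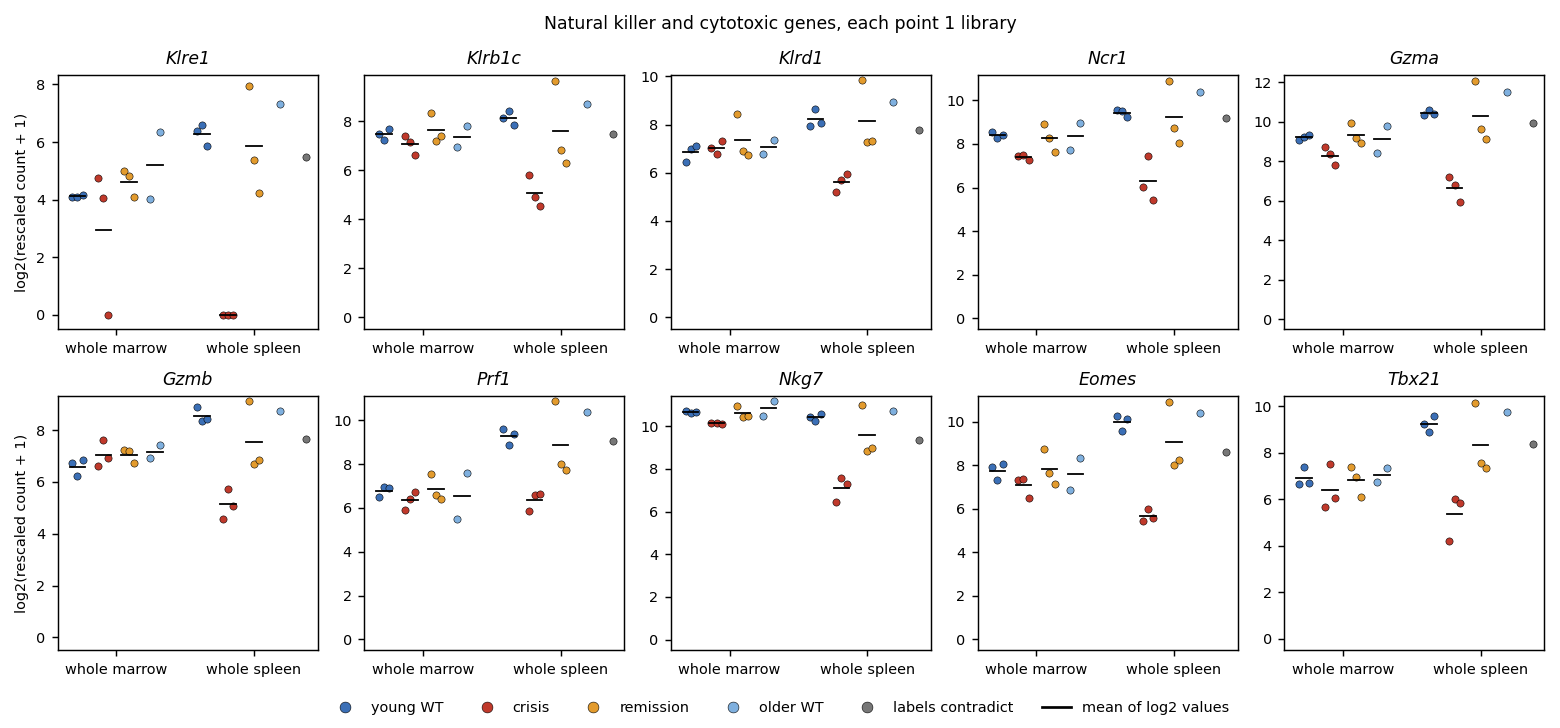
Rescaled counts of the 10 genes, on a log2(count + 1) axis, in each whole-marrow and whole-spleen library by group. In whole spleen the 3 crisis libraries lie below the 3 young WT libraries for each gene, and 1 of the 3 remission libraries lies above all young WT libraries.

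Among the receptors, Klre1, a lectin-like receptor of the NK gene complex, stood at 57.4, 82.7 and 95.7 rescaled counts in the young WT spleens and was listed at 0 in all 3 crisis spleens (adjusted p = 0.000327). Klrb1c is known as the gene of the NK1.1 antigen, and whether these BALB mice carry that antigen was not tested. Klrb1c stood at 232, 280.2 and 343 in young WT and at 22.3, 29.3 and 54.7 in crisis. The lowest young WT library of Klrb1c was thus well above the highest crisis library, and the log2 fold change was -3.05 ± 0.411 (8.31-fold, adjusted p = 0.000499). Klrd1, encoding CD94, the partner chain of the NKG2 receptors, had 244, 267 and 403 in young WT and 36.1, 51.1 and 60.5 in crisis. Its fall was the smallest of the 9, at -2.60 ± 0.354 (6.06-fold, adjusted p = 0.000526). Ncr1 had 602, 721 and 747 in young WT, and 41.8, 63.1 and 176 in crisis. Its 3 crisis spleens were the most uneven of the receptors, with mouse 2629 highest, and the fall was -3.13 ± 0.475 (8.76-fold, adjusted p = 0.000952).

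The granule genes fell by similar amounts. Gzma stood at 1284, 1346 and 1514 rescaled counts in young WT spleens and at 61.0, 109 and 145 in crisis. The young WT spleens were close to one another and the crisis spleens far below, with a log2 fold change of -3.79 ± 0.318 (13.8-fold, adjusted p = 0.0000496). Gzmb, encoding the granzyme that cleaves caspases, had 326, 342 and 472 in young WT and 23.1, 33.0 and 51.6 in crisis, a fall of -3.42 ± 0.381 (10.7-fold, adjusted p = 0.000199). For Prf1 the values were 473, 665 and 777 in young WT and 57.1, 95.0 and 97.9 in crisis, a fall of -2.93 ± 0.320 (7.64-fold, adjusted p = 0.000176). Perforin is the pore through which the granzymes act, so delivery and cargo genes were lower in the same 3 spleens. Nkg7 had 1223, 1390.0 and 1495 in young WT and 86.9, 157 and 192 in crisis, a fall of -3.30 ± 0.300 (9.84-fold, adjusted p = 0.0000730).

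Of the transcription factors, Eomes had the largest fitted fall outside Klre1, while Tbx21 and Gzma lay within each other's errors. Eomes, the T-box factor of mature NK cells and memory CD8 T cells, stood at 763, 1127 and 1238 rescaled counts in young WT and at 42.5, 46.1 and 62.7 in crisis, which left the crisis mean at 4.84% of the young WT mean. Its log2 fold change was -4.33 ± 0.295 (20.1-fold, adjusted p = 0.0000217), and its distance from the next genes was not tested. Tbx21, encoding T-bet, had 467, 590.2 and 753 in young WT and 17.5, 55.7 and 63.4 in crisis, a fall of -3.86 ± 0.484 (adjusted p = 0.000363). Over all 10 genes the crisis mean was 0 to 16.2% of the young WT mean.

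**Figure D3:**
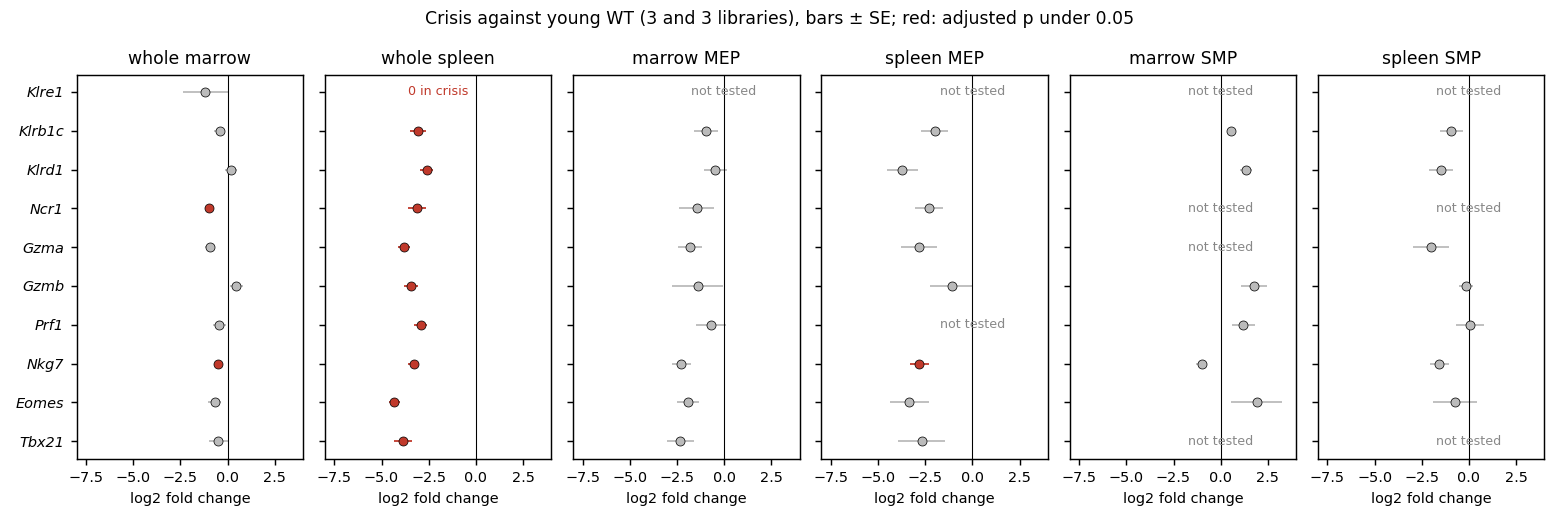
Log2 fold changes of the 10 genes in crisis against young WT mice in the 6 populations, with SE bars; red points passed at an adjusted p under 0.05 and grey points did not. Whole-spleen values lie at -2.60 or lower, Klre1 being marked as 0 in crisis, while whole-marrow values lie between -1.18 and 0.46.

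Other genes of NK biology moved with the members in whole spleen. Of 20 tested receptors and adaptors, 17 fell and none rose (median log2 fold change -2.35), among them Klrb1a (-3.27), the costimulatory receptor Cd226 (-3.12) and Klrc1 (-3.09), which encodes NKG2A. Fcgr3, the Fc receptor shared with macrophages, had -0.15 (adjusted p = 0.808). Of 15 other granule and killing genes, 11 fell, led by Ctsw (-3.67), Fasl (-3.62) and Crtam (-3.17), and 1 rose, Stx11 (0.50). Lamp1, a lysosomal membrane protein of most cells, had 0.40 (adjusted p = 0.0638). Of 5 NK cytokines and chemokines 4 fell: Ifng, encoding interferon gamma, was listed at 0 in all 3 crisis spleens against 22.8 to 58.5 rescaled counts in young WT, and Xcl1 (-3.26) and Ccl5 (-2.81) were lower. Ifng, like Klre1, passed the filter through the other groups, so its place in that count is not read as a result. In the list of interleukin receptors and their signalling genes (IL-15, IL-12 and IL-18) 8 of 13 fell, with the shared receptor chains Il2rg (-3.11) and Il2rb (-2.71) and the signal transducer Stat4 (-2.96), while the ubiquitous kinase Jak1 had 0.09 (adjusted p = 0.663). Among 12 other NK lineage factors 10 fell, with Gata3 (-3.68), Tcf7 (-3.35) and Ikzf3 (-3.18) first, and among 8 trafficking genes 6 fell, with S1pr5 (-3.19), Cxcr6 (-2.79) and Cxcr3 (-2.63) first.

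Several of these genes are also T cell genes, and markers of other lymphocytes were lower in the same libraries. All 17 T cell markers fell (median -3.28): their summed level was 46186 to 71621 rescaled counts in young WT and 4316 to 9196 in crisis, with all 17 above 0 in each library. All 9 B cell markers fell as well (median -3.64), with sums of 138893 to 158351 in young WT and 7812 to 18343 in crisis. The members' median of -3.36 over all 10 genes therefore lay between those of the B cell and T cell lists. No neutrophil marker of 8 passed (median -0.03), and 6 of 10 erythroid markers rose (median 0.92), with sums of 11541330 to 12316942 in young WT and 13376274 to 28565986 in crisis. Of the remaining lists, 5 of 8 mast cell and basophil markers, 4 of 5 plasmacytoid dendritic cell markers and 4 of 8 monocyte and macrophage markers fell. Of 8 stem and myeloid progenitor markers 2 fell (median -0.49), and none of 6 megakaryocyte markers passed (median 0.65, all above 0). The part of these cell types in the members' fall was not tested.

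**Figure D4:**
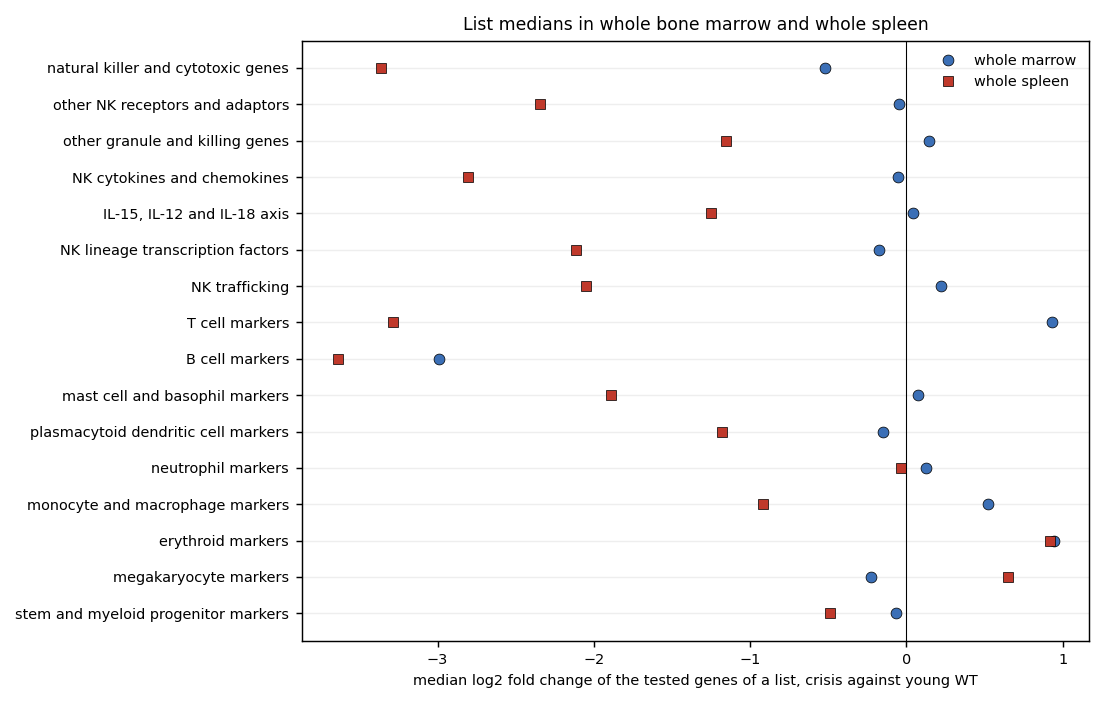
Median log2 fold change in crisis against young WT for the gene lists and for the 10 members, in whole marrow and whole spleen. In whole spleen the members lie beside the T cell (-3.28) and B cell (-3.64) lists, and in whole marrow they lie near 0 with a median of -0.52 while the T cell list is at 0.93.

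Whole marrow of the same crisis mice gave a different picture. Of the 10 genes 2 were called lower (background 4.20%), none higher, and 3 had crisis libraries that all lay below the young WT libraries (background 17.6%); the members' median was -0.52 against 0.01 over all genes. Ncr1 stood at 306, 338 and 371 rescaled counts in young WT marrow and at 153, 173 and 181 in crisis. The groups did not overlap, and the fall was -0.99 ± 0.206 (1.99-fold, adjusted p = 0.0284). For Nkg7 the values were 1548, 1610.4 and 1681 in young WT and 1088, 1123 and 1134 in crisis, a fall of -0.53 ± 0.115 (adjusted p = 0.0320). Gzma also did not overlap, at 535, 601 and 637 in young WT and 219, 324 and 413 in crisis, but missed the threshold at -0.93 ± 0.247 (adjusted p = 0.0542). Both marrow calls depended on the libraries: without mouse 2608 there were 3 calls, Gzma included at -1.14 (adjusted p = 0.0113), and without any other single library there was none, with adjusted p for Ncr1 of 0.0585 to 0.127. Shares of all genes called in those fits are not given here, so these counts are not read as results about the members. Neither gene passed with the deposited values left unscaled, with all groups in 1 fit, without a variance trend, or with older WT added to the controls (adjusted p for Ncr1 of 0.0581 to 0.108).

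The other marrow members overlapped between groups and did not pass, with adjusted p from 0.235 to 0.749. Gzmb was at 73.3, 106 and 113 in young WT and 96.2, 122 and 196 in crisis, and Klrd1 at 86.2, 127 and 139 and 109, 130.2 and 157; both had positive log2 fold changes, 0.46 and 0.18. Eomes (-0.69), Tbx21 (-0.50), Prf1 (-0.44) and Klrb1c (-0.42) had negative ones. Klre1 was at 15.9, 16.2 and 16.9 in young WT and at 0, 15.5 and 26.0 in crisis, so its value of -1.18 ± 1.19 rests on mouse 2953. Crisis means ran from 50.0% to 142% of young WT means, with a median of 75.3%. Of 20 other NK receptors and adaptors in marrow none passed with limma (median -0.05). No T cell marker of 17 passed either (median 0.93), with sums of 4287 to 4906 in young WT and 4135 to 7985 in crisis. B cell markers had a median of -2.99 in the same libraries, with 1 of 9 called lower and sums of 94989 to 114228 in young WT and 7061 to 56051 in crisis. Of 8 monocyte and macrophage markers 4 rose (median 0.53), as did 4 of 10 erythroid markers (median 0.94), and 2 of 6 megakaryocyte markers fell (median -0.23). Of 5 plasmacytoid dendritic cell markers 1 fell, 1 mast cell and basophil marker of 8 rose, and no neutrophil or stem and myeloid progenitor marker passed. The part of these lists in the members' values was not tested. Among 12 NK lineage factors Id2 (1.30) and Nfil3 (0.66), both needed early in NK development but present in other cells, rose, and Ets1 (-1.09) and Zeb2 (-0.48) fell.

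The difference between the organs in the crisis effect was tested directly, as the crisis effect in spleen minus that in marrow with mouse as a block. In whole tissue all 10 members were called lower (background 15.8% lower and 27.4% either way, of 16291 genes), with a median of -2.85 and adjusted p from 0.0000428 to 0.0108. Gzmb had the largest difference outside Klre1, at -3.92 ± 0.431, with a marrow value above 0 and a spleen value below it. Eomes followed at -3.66 ± 0.385, and Ncr1 had the smallest at -2.16 ± 0.491. With the deposited values left unscaled 4 of the 10 passed (background 1.42%). All 17 T cell markers (median -4.38) and 15 of 20 other NK receptors and adaptors differed in the same direction, while 3 of 9 B cell markers did (median -0.50). In SMP none of 7 tested members passed with limma and 4 had an unadjusted p under 0.05, with Klrd1 first at -2.83 ± 0.625 (adjusted p = 0.0987). In MEP none of 8 passed and 1 had an unadjusted p under 0.05. No gene of 15385 in SMP or of 14052 in MEP passed this test.

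In sorted MEP the members were low in both organs, and their crisis values pointed down. In spleen MEP 8 genes had a mean of 10 or more over all groups and were tested (Klre1 and Prf1 were not; Gzmb, under 10 in both groups on average, was), all 8 had negative log2 fold changes with a median of -2.76, and 1 was called lower (background 0.622%). That gene was Nkg7, at 60.0, 66.5 and 108 rescaled counts in young WT and 6.20, 9.76 and 15.4 in crisis, a fall of -2.82 ± 0.498 (7.07-fold, adjusted p = 0.0421). In 4 of the 8 the groups did not overlap (background 14.9%). Klrd1 and Eomes averaged under 10 in crisis and passed the filter through other groups, so this count is not read against that background. Klrd1 had 21.4, 28.0 and 54.5 in young WT and 0, 2.61 and 3.47 in crisis (-3.71 ± 0.821, adjusted p = 0.0702), and Eomes had 47.8, 53.3 and 69.8 against 0, 7.46 and 20.5 (-3.34 ± 1.03, adjusted p = 0.119). Nkg7 lost its call in 5 of the 6 fits that left out 1 library, with adjusted p of 0.0847 to 0.201, and kept it without mouse 2608 (0.0343). It also lost its call with all groups in 1 fit (0.100) and without a variance trend (0.0897), whereas 5 members were called lower with the deposited values left unscaled (background 3.20%). Several marker lists of other cells also had negative medians in the same libraries. Of 12 tested T cell markers 1 was called lower, but all 12 had negative values (median -1.84), with sums of 591 to 895 in young WT and 181 to 283 in crisis. Medians were -1.95 for B cell, -2.28 for mast cell and basophil, -2.20 for megakaryocyte and -1.51 for stem and myeloid progenitor markers, with none called, against 0.73 for neutrophil and 0.42 for erythroid markers. Their part in the members' values was not tested.

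In marrow MEP all 9 tested members (not Klre1) had negative log2 fold changes with a median of -1.45. None was called with limma (background lower 0.0139%), 4 had an unadjusted p under 0.05, and 4 did not overlap (background 9.02%). Tbx21 averaged under 10 in crisis and passed the filter through other groups, so the last count is not read against its background. Nkg7 had 85.1, 201 and 295 rescaled counts in young WT and 23.4, 41.4 and 43.2 in crisis (-2.27 ± 0.510, adjusted p = 0.181). Tbx21 had 22.5, 24.5 and 26.0 against 1.84, 2.86 and 11.0 (-2.32 ± 0.700, adjusted p = 0.266). Eomes and Gzma also had non-overlapping groups, at -1.93 and -1.81. These counts are small, and no count of 10 or more stood in any crisis library for Gzmb. Other marker lists had medians of similar size here: -1.71 for B cells, -1.79 for megakaryocytes, -1.76 for stem and myeloid progenitors, -1.61 for mast cells and basophils and -1.07 for T cells, with none of their genes called. Neutrophil markers had 0.19 and erythroid markers 0.40, with 1 of 10 called higher. T cell marker sums were 790.1 to 1833 in young WT and 282 to 698 in crisis. The part of these cells in the members' values was not tested.

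The SMP populations carried Nkg7 and, in spleen, Gzmb. The receptor gene Klrb1c was also present, at 162 to 214 rescaled counts in young WT marrow SMP, while several of the other members were scarce. In marrow SMP Klre1, Ncr1, Gzma and Tbx21 fell under the mean of 10 and were not tested. Of the 6 tested none was called with limma (background 2.29% either way), although 4 had an unadjusted p under 0.05. Nkg7 had 1351, 1487 and 1781 in young WT and 446, 987 and 990.1 in crisis, with no overlap (-1.01 ± 0.300, adjusted p = 0.102). The other 5 tested members had positive log2 fold changes. Gzmb had 1.76 ± 0.685 (adjusted p = 0.176), Prf1 1.21 ± 0.595 (adjusted p = 0.261) and Eomes 1.91 ± 1.35 (adjusted p = 0.424). Klrd1 had 33.3, 34.8 and 40.4 in young WT and 66.5, 109 and 112 in crisis (1.35 ± 0.309, adjusted p = 0.0604). Klrb1c had 162, 184 and 214 against 268, 273 and 277 (0.55 ± 0.183, adjusted p = 0.129). Non-overlapping groups were thus seen for 1 member downward (background 15.0%) and 2 upward (background 15.2%). Without mouse 2608 Nkg7 (-1.20, adjusted p = 0.0451) and Klrd1 (1.24, adjusted p = 0.0463) passed. In the same libraries Klrk1, encoding the receptor NKG2D, rose by 2.09 ± 0.272 (adjusted p = 0.0150), as the only one of 15 other receptors and adaptors to pass, and 8 of 10 erythroid markers rose (median 1.33). Of 12 other granule and killing genes 1 fell, Tnfsf10 (-0.91, adjusted p = 0.0141). Stat4 fell as 1 of 13 interleukin receptor and signalling genes (-0.66, adjusted p = 0.0169). Of 8 stem and myeloid progenitor markers 2 fell (median -0.39), and none of 12 T cell (median -0.39) or 9 B cell markers (median -1.04) passed.

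**Figure D5:**
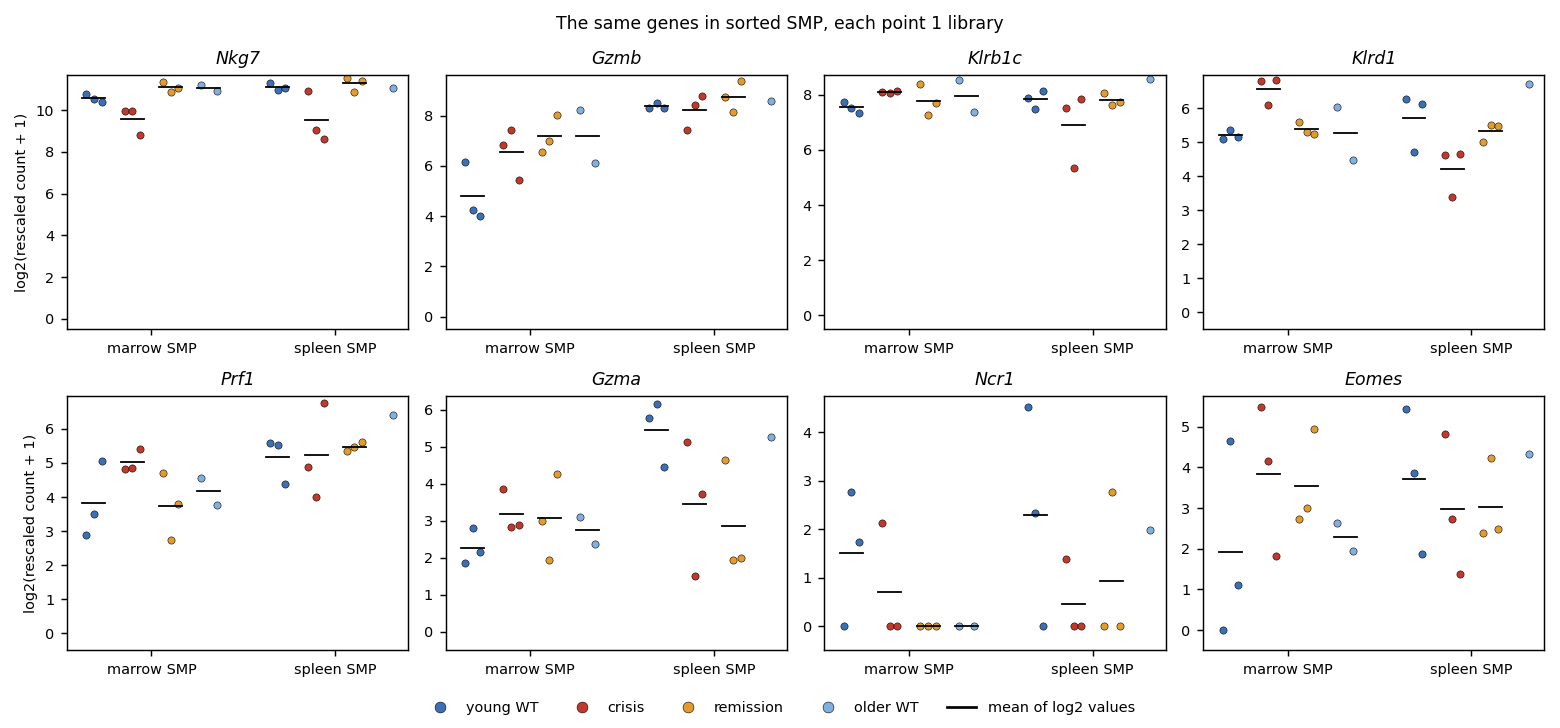
Rescaled counts of 8 members in each SMP library of marrow and spleen, on a log2(count + 1) axis, by group. Nkg7 stands highest throughout; in spleen 2 of the 3 crisis libraries (533 and 399) lie far below the young WT libraries (1977 to 2504), and in marrow Klrd1 is higher in crisis (66.5 to 112) than in young WT (33.3 to 40.4).

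In spleen SMP 7 members were tested, none was called with limma and 2 had an unadjusted p under 0.05, in a population where 24.1% of genes changed and 11.2% fell. Nkg7 had 1977, 2178 and 2504 in young WT and 399, 533 and 1947 in crisis. The groups did not overlap, but the crisis library of mouse 2608 lay just under the lowest young WT library, and the value was -1.57 ± 0.502 (adjusted p = 0.0502). Without mouse 2608 it was -2.26 (adjusted p = 0.00112), and it passed narrowly under several other settings (adjusted p of 0.0212 to 0.0490 with another pseudocount, the regularised log2 table, all groups in 1 fit or older WT added). Klrd1 was the other member without overlap (background 24.7%), at 25.3, 69.0 and 75.3 against 9.48, 23.6 and 24.0 (-1.48 ± 0.652, adjusted p = 0.115). Gzmb overlapped fully, at 316, 319 and 365 in young WT and 173, 348 and 435 in crisis (-0.16 ± 0.380, adjusted p = 0.768). Klre1 was at 0 in all 6 libraries. Beside these values, 7 of 16 T cell markers fell in spleen SMP (sums of 4583 to 6294 in young WT and 1112 to 3198 in crisis), as did 9 of 12 NK lineage factors, 4 of 15 other NK receptors and adaptors and 2 of 4 mast cell and basophil markers. In the same libraries 5 of 8 stem and myeloid progenitor markers fell (median -1.41, sums of 126046 to 172549 in young WT and 38141 to 104468 in crisis) and 5 of 10 erythroid markers rose (median 1.58). Among the others 2 of 9 B cell, 2 of 8 monocyte and macrophage, 1 of 5 plasmacytoid dendritic cell and 1 of 6 megakaryocyte markers fell. The part of these changes in the members' values was not tested. The young WT spleen SMP mice (2805, 2808 and 2810) were not those of the other populations.

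The study also compared partial remission with crisis. In whole spleen all 3 remission libraries lay above all 3 crisis libraries for each of the 10 genes (background 16.2% for this direction). None passed with limma, all 10 had an unadjusted p under 0.05, and none of 16015 genes passed. Outside Klre1 the log2 differences were 2.43 to 3.64 (5.38-fold to 12.4-fold), with adjusted p from 0.373 to 0.375. This comparison uses the same crisis libraries as the comparison with young WT, so its direction is not separate evidence. Gzma was at 560.5, 788 and 4319.9 in remission, against 61.0 to 145 in crisis and 1284 to 1514 in young WT. Eomes was at 260.2, 296 and 1933, against 42.5 to 62.7 and 763 to 1238. The remission spleens were far apart in every member: mouse 2726, aged 58 days, lay above all young WT libraries in 10 of 10 genes, and mouse 2976 (33 days) and the mouse of 32 days lay between the crisis and the young WT libraries in 10 of 10.

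Without mouse 2726, Gzma alone was called higher than in crisis (2.74, adjusted p = 0.0497), 41 of all genes were called, and the other 8 with a crisis level above 0 had log2 differences of 1.47 to 2.46. T cell markers followed the same split, with sums of 90957 in mouse 2726 and 13716 and 19534 in the other 2, and B cell markers stood at 235896 in mouse 2726 and at 39321 and 52697. Erythroid markers were lowest in mouse 2726, at 4441538 against 16028469 and 25395987. The unassigned library of mouse 27265 had 963 for Gzma, 387 for Eomes and 590.2 for Ncr1, and lay between crisis and young WT for 9 of the 10 genes, Prf1 (529.7) being the exception. Against the single older WT spleen, remission values were lower by 0.80 to 1.49 on the log2 scale and none passed with limma (adjusted p = 0.987, none with an unadjusted p under 0.05). Without mouse 2726 the log2 differences were -1.65 to -2.53. That fit sets 2 remission libraries against 1 older WT library, which has no spread of its own; it called all 10 members lower and 38.4% of all genes in either direction, and no test is taken from it.

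In whole marrow remission means were 96.5% to 162% of young WT (median 115%), none was called against crisis with limma, 3 had an unadjusted p under 0.05, and 3 genes had remission libraries above all crisis libraries (background 8.79%). Ncr1 had 199.5, 308 and 484 there, with mouse 2726 again the highest, and Nkg7 had 1356, 1430.1 and 1989. In spleen MEP, with 2 remission libraries and no mouse 2726, the members stayed low: means were 14.8% to 45.0% of young WT over the 7 genes compared (median 32.2%), and 7 of 8 tested members lay below both older WT libraries (background 16.3%), with none called by limma and 5 at an unadjusted p under 0.05. Klrd1 averaged under 10 in remission and passed the filter through other groups, so that count is not read against its background. The older WT libraries of spleen MEP came from mice 2761 and 27265, the latter being the mouse whose labels disagree. Nkg7 had 19.5 and 50.9 in remission, 69.1 and 241 in older WT and 6.20 to 15.4 in crisis. In marrow MEP the median was 109% of young WT. In SMP Nkg7 was high in remission in both organs, at 1876, 2127 and 2611 in marrow against 446 to 990.1 in crisis (1.53 ± 0.301, adjusted p = 0.100) and at 1909, 2688 and 3034 in spleen against 399 to 1947 (1.74 ± 0.542, adjusted p = 0.341).

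Across libraries the members varied together most in whole spleen, where the 45 gene pairs had a median Pearson r of 0.953 (0.898 to 0.993) over 11 libraries that span the groups. Those 11 include the library of mouse 2726 and the unassigned library of mouse 27265, and no value without them is given. Pair medians were 0.782 in spleen MEP, 0.612 in whole marrow, 0.466 in marrow MEP, 0.341 in spleen SMP and 0.204 in marrow SMP, over 10 or 11 libraries each. Over all 64 libraries the pairs had a median of 0.696 and ran from -0.011 to 0.941. Klrb1c, Gzmb and Nkg7 had 0.824 to 0.924 with each other there, whereas Ncr1 had 0.041, 0.023 and -0.011 with them. The mean of the 10 genes, used below, therefore does not follow each gene alike. These are descriptions of libraries that share mice, depth and group differences. Over all 64 libraries and 15933 genes, the genes whose log2 levels most resembled the members' mean were Gbp4 (r = 0.943), the chemokine gene Ccl5 (0.942), Myo1e (0.933), Sh2d2a (0.924), Grap (0.923), Ets1 (0.920), Rasgrp1 (0.916), Gbp9 (0.913), Ms4a4b (0.911) and Klf2 (0.911).

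The members lie at separate loci of GRCm38, on GENCODE M21 models that are all protein coding. Klrb1c (chr6:128778485-128789215, minus), Klre1 (chr6:129577905-129585827, plus) and Klrd1 (chr6:129591782-129598775, plus) share the NK gene complex, and Klre1 and Klrd1 are close neighbours. Ncr1 (chr7:4337724-4345164) and Nkg7 (chr7:43437073-43438249) are on the plus strand of the same chromosome. Gzma is at chr13:113093825-113100981 and Gzmb at chr14:56258838-56262260, both minus; Prf1 is at chr10:61297833-61304680 and Eomes at chr9:118478212-118486132, both plus; and Tbx21 is at chr11:97098071-97115331, minus. Klrb1c overlaps the model Gm44511 on its own strand and Eomes overlaps the antisense model Gm33460, so reads there could be shared. The Klr and granzyme genes have close paralogs, and how their shared reads were split by the authors' counting was not tested. How counting reads of BALB mice on GRCm38 affected the Klr genes of the NK gene complex was not tested either.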

How the data were processed

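RNA-seq counts were used from 64 libraries of 18 mice, 63 of them assigned to groups by their labels; 1 was left unassigned because its labels and those of its mouse disagree. The submitters' processing notes name Bowtie2 2.2.0, RSEM, DESeq2 and GRCm38, with no order. The authors deposited gene counts already normalised between libraries, treated here as a normalised signal, and a regularised log2 table, used as an alternative. No column lay outside the samples, and 25607 identifiers matched GENCODE M21 symbols.

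Within each population, counts were rescaled by the median ratio to the geometric mean (log2 factors -0.918 to 0.533), genes with a mean under 10 were left out (over all libraries of the population, or over the libraries fitted in comparisons between organs), and log2(count + 1) was fitted with limma 3.58.1 in R 4.3.3 with a variance trend and robust estimation, using only the groups compared. P-values were adjusted by Benjamini-Hochberg over all genes tested, with a threshold of 0.05. A lone library in a group was assumed to vary like the others. Fold changes are on the log2(count + 1) scale, which understates those of low genes. The fits were tested on simulated data.

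For comparisons between organs, mouse was a block where the groups fitted shared mice, since same-named libraries come from the same mouse. Young WT SMP of spleen and marrow came from different mice, so that fit had no block. The block correlation was 0.277 in whole tissue, 0.544 in MEP and 0.328 in SMP for the crisis effect, and -0.156 for young WT whole tissue. Separate animals are replicates.

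The members and gene lists were chosen with earlier results of these data known. From each list the text names up to 3 genes with the largest change among those that passed and the best-expressed gene that did not, plus single genes that were the only ones of their list in a direction, which were chosen after their values were seen.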

Additional observations from a re-analysis of the deposited data

Results flagged for a closer look

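The crisis effect, taken as the log2 fold change of scat crisis against young WT mice, differed between whole spleen and whole marrow for all 10 genes, by limma with mouse as a block and adjusted over all genes (adjusted p from 0.0000428 to 0.0108). Among the receptors the spleen effect minus the marrow effect was -2.68 for Klrb1c, -2.82 for Klrd1 and -2.16 for Ncr1. The value for Klre1 was -5.15 and depends on the pseudocount, since that gene was listed at 0 in all 3 crisis spleens. Among the granule genes it was -2.87 for Gzma, -3.92 for Gzmb, -2.50 for Prf1 and -2.75 for Nkg7. For the transcription factors it was -3.66 for Eomes and -3.30 for Tbx21. In each case the spleen value was below the marrow value, and 15.8% of all genes tested differed in that direction. The marrow value itself was above 0 for Gzmb (0.46) and Klrd1 (0.18), neither of which passed in marrow, and below 0 for the other 8 genes.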

How the results depend on the processing

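The 10 members called lower in whole spleen in crisis were 10 under all 13 settings run. In whole marrow the 2 called lower became 0 with deposited values, with all groups in 1 fit, without a variance trend and with older WT added, and 0 to 3 when 1 library was left out. With deposited values the count lower in crisis was 2 rather than 0 in marrow MEP (2.59% of all genes), 5 rather than 1 in spleen MEP (3.20%) and 1 rather than 0 in spleen SMP (14.0%), and 1 rather than 0 was higher in marrow SMP; 1 was higher in remission than in crisis in marrow MEP and in marrow SMP, and 1 lower in remission than in older WT in spleen MEP, each against 0. Deposited values also gave 4 rather than 10 for the organ difference in whole tissue, 4 rather than 8 higher in young WT whole spleen and 1 rather than 0 lower in young WT spleen MEP. In spleen MEP the count lower in crisis was 2 without the filter, 0 with all groups in 1 fit, 0 without a trend and 2 with older WT added. In marrow SMP it was 1 with all groups in 1 fit and 1 with older WT added. In spleen SMP it was 1 with a pseudocount of 4, 1 with the regularised log2 table, 1 with all groups in 1 fit and 2 with older WT added. The main fit called 0.622% of genes lower in spleen MEP, 11.2% lower in spleen SMP and 2.29% either way in marrow SMP. Shares of all genes under these alternatives are not given here, so the counts are not read as results about the members. With all groups in 1 fit 1 was higher in remission than in crisis in marrow SMP. Without mouse 2726, in whole spleen 1 was higher in remission than in crisis and 10 lower than in older WT, a group of 1 library there.

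Leaving out 1 library at a time gave 0 to 1 and 0 to 10 for those 2 counts. The same gave 0 to 1 lower in crisis in marrow MEP, 0 to 2 in spleen MEP, 0 to 1 in marrow SMP (and 0 to 1 higher) and 0 to 2 in spleen SMP. It gave 0 to 1 higher in remission than in crisis in SMP of either organ, 0 to 3 for the organ difference in SMP, and 0 to 2 higher in young WT spleen SMP. The cause of these changes was not tested, and shares of all genes called are not given for these fits.

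Directions turned for values that had not passed. In fits without 1 library Klrd1 in whole marrow ran from -0.0276 (without young WT replicate 1) to 0.31 and Klre1 there from -2.09 to 0.29 (without crisis replicate 3). In spleen SMP Gzmb ran from -0.44 to 0.22 (without crisis replicate 1), Eomes from -1.68 to 0.11 (without young WT replicate 1) with 0.0553 without crisis replicate 3, and Prf1 from -0.72 (without crisis replicate 3) to 0.66, with -0.34 without young WT replicate 3. There Prf1 was -0.42 with deposited values, -0.0451 in the regularised log2 table and -0.26 with older WT added. In young WT SMP Klrb1c ran from -0.0046 (without spleen replicate 3) to 0.30.

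Without the replicate block, the organ difference in whole tissue held 10 members, young WT whole spleen had 9 higher (Klrb1c, 0.69) and MEP 0, and no other call changed. Young WT SMP of the organs shared no mouse, so that fit had no block to leave out. Some fits of young WT whole tissue without 1 library gave no value, because the block correlation could not be estimated.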
